A study of Mus musculus with 2 samples.

Results

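Natural killer (NK) cells were taken from single-cell transcriptomes of subcutaneous RM-1 tumours, and 369 of the 32976 cells that passed the quality limits belonged to them. A cell was a member when it held at least 2 unique molecular identifiers (UMIs, counted single transcripts) of Ncr1, Klrb1c and Klre1 together, none of Cd3d, Cd3e and Cd3g, none of Cd79a, Ms4a1 and Ebf1, at most 1 of Krt8 and Krt18, and at most 1 of Lyz2. Cells with fewer than 500 UMIs, fewer than 300 genes or a mitochondrial share over 15% had been left out before. Members were thus chosen by counts of the same libraries that give the results, and the levels of the genes named in the rule are a description only.

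RM-1 is a mouse prostate cancer line, labelled wild type, and it was grown in C57BL/6 mice that received either vehicle or RP-6306, an inhibitor of the CDK1-restraining kinase PKMYT1. Tumours were collected on day 10 of treatment, and sorted CD45+ cells were recombined with tumour cells in a 3 to 1 mixture before droplet sequencing. The vehicle group and the RP-6306 group had 1 library each, the design text speaks of a pair of tumour-bearing mice without giving a number per group, and their age, the dose and the route are not given in the sources used here. No test between the groups was therefore possible, and no difference has a replicate check. The 95% intervals below cover counting error only, not the spread between mice or, for levels, between cells.

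NK cells are innate lymphocytes that kill stressed, infected or transformed cells without a rearranged antigen receptor. They release perforin and granzymes and secrete interferon gamma and the chemokine CCL5. They weigh signals from activating receptors such as NKG2D against inhibitory ones such as NKG2A. The Ly49 family holds receptors of both kinds. In mice they mature from a CD27+ stage to a CD11b+ stage (CD11b is the product of Itgam) and then gain KLRG1, under the transcription factors Eomes, T-bet and ZEB2. Their tissue-resident relatives, the type 1 innate lymphoid cells (ILC1), carry the integrin CD49a (Itga1) and usually little Eomes.

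The 270 vehicle members held 812889 UMIs, with a median of 2858 per cell, and the 99 RP-6306 members held 285225, with a median of 2785. Of the barcodes that passed the limits, 366 occurred in both libraries, and none of these was an NK cell in both. The label fitted the markers that the rule did not use. Eomes stood at 248.5 CPM (the gene's UMIs in every 1000000 UMIs of the same cells) in vehicle NK cells and 203 CPM in RP-6306 NK cells, against 0.886 and 0.608 CPM in B cells. Gzma, a granule protease, stood at 3304 and 3986 CPM, against 2.55 and 0.608 CPM in B cells and 5.86 and 12.8 CPM in CD8 T cells.

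Markers of other cells were low but not all absent. Of 12 T lineage genes, 1 had no UMI in vehicle NK cells (Cd4) and 2 had none in RP-6306 NK cells (Cd5 and Cd8a), and the list summed to 559 and 540 CPM, mostly from the receptor constant regions Trbc2 and Trbc1. Trac, the constant region that alpha beta T cells need, was at 17.2 and 7.01 CPM, against 287 and 315 CPM in CD8 T cells. Of 9 genes of type 2 and type 3 innate lymphoid cells, Areg was counted and the other 8 had no UMI in either library. All 5 erythroid genes were at 0, and 8 neutrophil genes summed to 8.61 and 3.51 CPM. Tumour transcripts without S100a6 summed to 48.0 and 42.1 CPM, no higher than the 58.6 and 46.4 CPM in B cells. S100a6 itself was higher, at 731 and 715 CPM in NK cells and 497 and 388 CPM in B cells. In tumour cells S100a6 was at 5254 and 6434 CPM, and the source of the S100a6 counts in NK cells was not tested.

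NK cells were a smaller part of the RP-6306 library. They made up 1.58% of 17108 vehicle cells (270 cells, exact Clopper-Pearson interval 1.40 to 1.78) and 0.624% of 15868 RP-6306 cells (99 cells, 0.507 to 0.759), which was 2.53-fold lower. The log2 ratio of these shares was -1.34 (-1.69 to -1.0). Among cells with a UMI of Ptprc, the gene of CD45, and at most 1 keratin UMI, the shares were 2.42% (2.14 to 2.73) and 0.895% (0.727 to 1.09), 2.71-fold lower. There were 9.51 and 2.83 NK cells for every 100 T cells, 3.36-fold fewer, while T cells themselves were 16.6% and 22.0% of all cells. The sort and the 3 to 1 mixing set how many leukocytes enter a library, and their part in these shares was not tested.

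**Figure D1:**
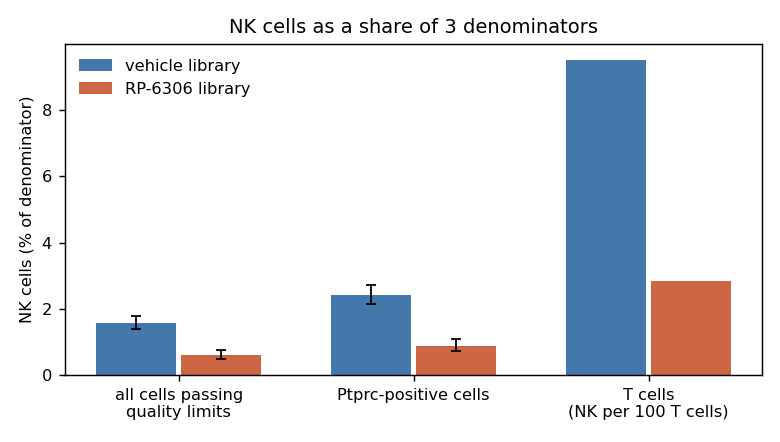
NK cells as a percentage of all cells that passed the quality limits, of Ptprc-positive cells and of T cells in the vehicle and RP-6306 libraries, with exact 95% counting intervals on the first 2 pairs of bars. The T cell pair is a ratio of separate cell sets, 9.51 and 2.83 per 100, and has no such interval. The RP-6306 bar is the lower one in all 3 pairs.

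The order of the shares was set by the first term of the rule, and the other terms left it as it was. After the requirement for NK receptor UMIs alone, 455 vehicle and 177 RP-6306 cells were left, or 2.66% and 1.12% of all cells. Removing cells with Cd3 UMIs left 337 and 120, removing B gene UMIs left 284 and 102, the keratin limit left 271 and 100, and the Lyz2 limit left 270 and 99. Just inside the threshold, 59 vehicle and 26 RP-6306 members held exactly 2 receptor UMIs, and just outside it 77 and 23 cells held 1. Those outside cells had 163 and 140 CPM of Eomes and 2106 and 3819 CPM of Gzma, while the cells with exactly 2 had 236 and 199 CPM of Eomes and 2763 and 4042 CPM of Gzma. The cells with 1 had a median of 2148 and 2176 UMIs. In the vehicle library they held less Tyrobp than the cells with exactly 2 (587 and 1197 CPM) and less Nkg7 (1051 and 1511 CPM). T cells that also carried NK receptor UMIs were 49 and 32 cells, or 0.286% and 0.202% of all cells.

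Maturity states were read after every cell was thinned at random to 1500 UMIs, which kept 257 vehicle and 91 RP-6306 NK cells and left out 13 and 8. Eomes was seen in 27.6% of vehicle NK cells (22.3 to 33.5) and 30.8% of RP-6306 NK cells (21.5 to 41.3). Itgam was seen in 16.3% (12 to 21.4) and 17.6% (10.4 to 27.0). Klrg1, an inhibitory receptor of late NK cells, was seen in 7.0% (4.20 to 10.8) and 4.4% (1.21 to 10.9). Cd27, the costimulatory receptor of the earlier stage, was seen in 5.84% (3.30 to 9.44) and 4.4% (1.21 to 10.9). All 4 pairs of intervals overlap, which on its own neither shows nor excludes a difference in maturity. With at least 3 receptor UMIs required of each member, Itgam was seen in 19.5% (14.3 to 25.6) of vehicle and 8.96% (3.36 to 18.5) of RP-6306 NK cells. Those intervals overlap from 14.3 to 18.5. B cells thinned in the same way showed each of the 4 genes in at most 0.618% of cells, from unthinned medians of 2219 and 1977 UMIs.

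Together, Itgam and Cd27 split the thinned cells into 4 states. Neither gene was seen in 77.8% of vehicle NK cells (72.2 to 82.7) and 80.2% of RP-6306 NK cells (70.6 to 87.8). Itgam alone was seen in 16.3% (12 to 21.4) and 15.4% (8.67 to 24.5), and Cd27 alone in 5.84% (3.30 to 9.44) and 2.20% (0.267 to 7.71). Cells with both were 0 of 257 in the vehicle library, which allows a share of up to 1.17%, and 2 of 91 in the RP-6306 library, or 2.20%. Without thinning, Itgam was seen in 25.2% and 23.2% of cells, Cd27 in 12.6% and 15.2%, Klrg1 in 10.0% and 6.06%, and Eomes in 45.6% and 41.4%. A cell without a UMI at this depth may still express the gene, so most of the cells with neither were not assigned a stage.

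**Figure D2:**
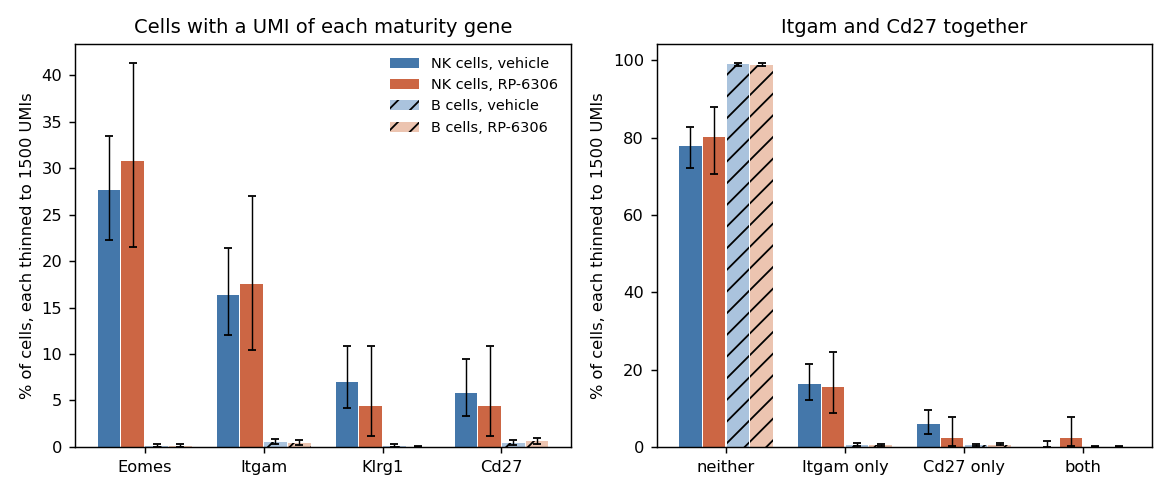
Percentage of NK cells (solid) and of B cells (hatched) with a UMI of each maturity gene (left) and in each of 4 Itgam and Cd27 states (right), every cell thinned to 1500 UMIs, with exact 95% counting intervals. The vehicle and RP-6306 intervals overlap for each gene and state, and the B cell bars for the 4 genes stay at or below 0.618%.

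Cells with Itgam alone held more Ccl5 and Gzmb than cells with Cd27 alone, in each library on its own. This compared 63 with 29 unthinned vehicle cells and 18 with 10 RP-6306 cells, and the cells with Cd27 were the deeper ones (medians of 2772 and 3228 UMIs, and of 2602 and 3364). Ccl5 was at 6157 CPM in vehicle cells with Itgam and 4508 CPM in those with Cd27 (log2 ratio 0.45, 0.29 to 0.61). In the RP-6306 library it was at 7974 and 4289 CPM (0.89, 0.62 to 1.17). Gzmb, the granzyme that triggers caspases, had log2 ratios of 0.59 (0.17 to 1.02) and 1.07 (0.37 to 1.83). Gzma had 0.91 (0.70 to 1.13) and 0.20 (-0.13 to 0.52), so that its RP-6306 interval included 0. The granule list as a sum had 0.64 (0.51 to 0.78) and 0.14 (-0.05 to 0.33), and for Prf1, Ifng and Xcl1 the intervals included 0 in both libraries.

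Among regulators, Zeb2, which drives the late stage, had a log2 ratio of 0.95 toward the Itgam cells in each library (0.19 to 1.80 and -0.63 to 2.79). Tcf7, a factor of early lymphocytes, had -1.16 (-2.08 to -0.27) and -1.15 (-3.85 to 1.20). Emb, an early-stage glycoprotein gene, had -0.43 (-0.74 to -0.12) and -0.31 (-0.91 to 0.30). The early maturation list as a sum was lower in the Itgam cells by -0.44 (-0.65 to -0.23) and -0.28 (-0.66 to 0.11). Over all 777 genes with enough UMIs in both libraries, 53.3% had the same sign in both, and none was at least 2-fold higher (0%) or lower (0%) in both, so a wider shared difference was not detectable with 10 RP-6306 cells on one side.

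The rule for naming genes between the states took only genes with the same sign in both libraries. Their agreement in sign was thus fixed in advance and is no separate support. Sytl3, a vesicle-docking synaptotagmin-like gene, stood higher in the Itgam cells by 0.81 (0.43 to 1.20) in the vehicle library. In the RP-6306 library Sytl3 stood higher by 0.69 (0.05 to 1.37). Hist1h1e, a linker histone gene, followed with 0.69 (0.13 to 1.29) and 1.85 (0.66 to 3.27), and H2-Q7, a non-classical class I gene, with 0.96 (0.27 to 1.71) and 0.72 (-0.47 to 2.05). The other genes the rule took on that side were Fndc3a, Tmem30a, Abcb1b, Birc3 and Ndfip1, at 0.62 to 0.91 in the vehicle and 1.03 to 2.0 in the RP-6306 library. Klra7, an inhibitory Ly49 receptor gene, was higher in the Cd27 cells, at -0.58 (-1.23 to 0.07) and -1.31 (-2.41 to -0.28). With it came Emb, Foxp1, Jmjd1c, Chd2, Smchd1, Il2rb and Ets1. Klra8, the activating receptor Ly49H, had opposite signs, 0.84 (0.33 to 1.39) and -0.49 (-1.12 to 0.14).

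Between the libraries, the transcripts of NK cells were mostly alike. Of 6465 genes with at least 20 UMIs over both libraries, 163 were at least 2-fold higher in RP-6306 NK cells (2.52%) and 243 at least 2-fold lower (3.76%), and the median log2 ratio of CPM + 1 was 0.05. With TMM scaling (trimmed mean of M values) the median was -0.05 and these counts were 108 and 328, so that the higher genes made up 24.8% of them in place of 40.1%. List medians below kept their sign under that scaling except for activating receptors, at 0.09 and -0.01. Counting intervals lay above 0 for 6.62% of genes and below 0 for 2.51%. The median depth differed by few UMIs (2858 and 2785), and mitochondrial UMIs were 0.779% and 0.810% of the total.

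Most granule genes were slightly higher in RP-6306 NK cells, and perforin was level. Of 20 granule genes 16 had enough UMIs, 12 of these were above 0 on the log2 scale (all genes 55.1%) and 4 below (all genes 44.9%), with a median of 0.24. Gzma was at 3304 CPM in vehicle and 3986 CPM in RP-6306 NK cells (log2 ratio 0.27, 0.17 to 0.37), and 87.4% and 86.9% of cells held a UMI. Gzmb was at 913 and 1052 CPM (0.20, 0.01 to 0.40). Prf1, which encodes the pore-former perforin, was at 299 and 298 CPM (0.00, -0.38 to 0.36).

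Other members of the list ranged wider. Serpinb9, the inhibitor that shields killer cells from their own granzyme B, was at 620 CPM (567 to 677) in vehicle and 1118 CPM (999 to 1248) in RP-6306 NK cells, a log2 ratio of 0.85 (0.64 to 1.06). It was seen in 74.1% and 84.8% of NK cells, and in CD8 T cells it was at 29.0 and 32.7 CPM. In T cells with NK receptor UMIs Serpinb9 was at 413 and 390 CPM (-0.08, -0.58 to 0.40). Ctsw, a cathepsin of killer lymphocytes, was at 210 and 389 CPM (0.88, 0.53 to 1.24), and Serpinb6b, another granzyme inhibitor, at 374 and 571 CPM (0.61, 0.33 to 0.89). Rab27a, which docks granules, was at 56.6 and 98.2 CPM (0.78, 0.06 to 1.5), and Unc13d, which primes them, rested on 11 UMIs in each library (1.45, 0.16 to 2.86). Closer to 0 were Cst7 (0.36), Srgn (0.21), Nkg7 (0.07) and Lamp1 (-0.15), all with intervals that included 0.

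The granzymes of the Gzmc cluster came from few cells. Gzmc was at 380 and 231 CPM (-0.71, -1.12 to -0.33), and 41.1% of its vehicle UMIs and 37.9% of its RP-6306 UMIs lay in 1 cell each. Gzmd, with 23 vehicle UMIs, and Gzmf, with 18, were found in 1 vehicle cell alone and in no RP-6306 cell. Fasl, the death ligand, was at 108 and 161 CPM (0.57, 0.03 to 1.11).

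Inhibitory receptors had a median of 0.49, with 6 of 8 measured members above 0 (all genes 55.1%) and 4 with an interval above 0 (all genes 6.62%). With at least 3 receptor UMIs required of each member the median was 0.28. Klrc1, which encodes NKG2A, was at 282 CPM (246 to 321) in vehicle and 536 CPM (455 to 628) in RP-6306 NK cells, a log2 ratio of 0.93 (0.62 to 1.23), and its UMIs came from 40.7% and 50.5% of cells. Its partner Klrd1 (CD94) was at 450 and 498 CPM (0.14, -0.14 to 0.43). Klrb1b, the inhibitory receptor NKR-P1B, was at 463 and 670 CPM (0.53, 0.27 to 0.79), and Ctla4 at 56.6 and 102 CPM (0.83, 0.12 to 1.55), with 13.0% and 20.7% of its UMIs in 1 cell. Tigit was at 138 and 189 CPM (0.46, -0.04 to 0.94), Klrg1 at 36.9 and 24.5 CPM (-0.57, -2.02 to 0.63), and Pdcd1, the gene of PD-1, had no UMI in either library.

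Activating receptors and their adaptors ranged from -0.52 to 0.84. Klrc2, the activating NKG2C relative of Klrc1, was at 258 and 428 CPM (0.73, 0.39 to 1.06), Klrb1f at 99.6 and 179 CPM (0.84, 0.31 to 1.37), and Klrk1, which encodes NKG2D, at 367 and 466 CPM (0.35, 0.04 to 0.65). Lcp2, an adaptor below these receptors, was at 116 and 179 CPM (0.62, 0.11 to 1.14). Cd160 (0.60), Cd244a (0.51) and Hcst (0.39) were higher too, with intervals that included 0. The signal chains Fcer1g, Tyrobp and Cd247 had 0.04, 0.09 and -0.27, with intervals that included 0. In all, 12 of 17 members were above 0 (all genes 55.1%), or 8 of 17 with TMM scaling (all genes 44.6%), and the list's median was 0.09. Klrc1 lies at 129666015 to 129678973 on the minus strand of chromosome 6 (GRCm38), beside the rule's own Klre1 at 129577905 to 129585827 and Klrb1f at 129045901 to 129057464.

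The Ly49 receptors had a median of 0.43, with 6 of 8 measured members above 0 (all genes 55.1%). Klra8 was at 572 CPM (521 to 626) and 785 CPM (686 to 895), a log2 ratio of 0.46 (0.22 to 0.69), in 48.5% and 56.6% of cells. Klra4 was at 410 and 543 CPM (0.41, 0.12 to 0.69) and Klra7 at 273 and 375 CPM (0.46, 0.11 to 0.80). Klra9 was at 164 and 161 CPM (-0.02, -0.54 to 0.47). These genes, like Klrc1 and Klrc2, the Klrb1 genes, the Serpinb9 relatives and the granzyme cluster, have near-identical copies, and counting may have split or lost reads between them.

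**Figure D3:**
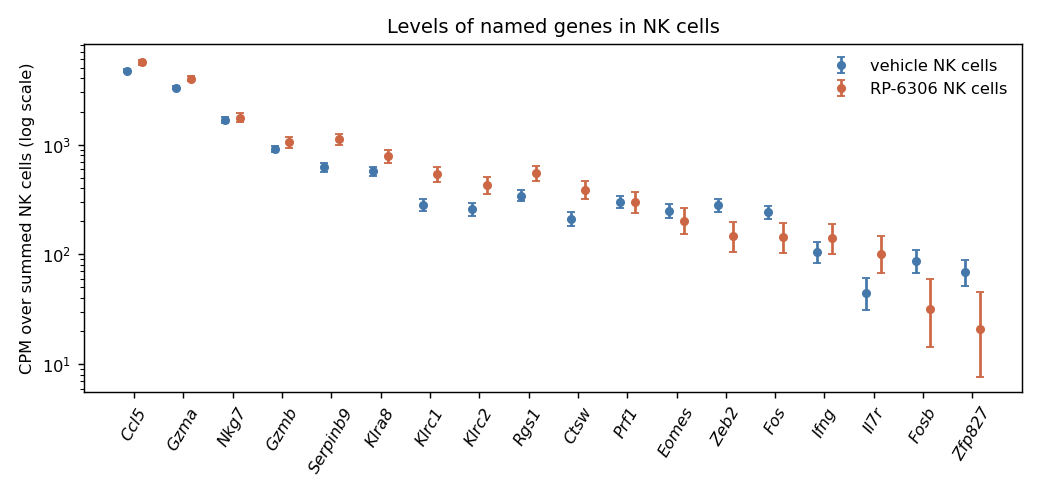
Level of 18 genes in NK cells, in CPM on a log axis, summed over the 270 vehicle and 99 RP-6306 cells, with exact 95% Poisson intervals. Ccl5, Gzma, Serpinb9, Klra8, Klrc1, Klrc2, Rgs1, Ctsw and Il7r lie higher in the RP-6306 library with separate intervals. Zeb2, Fos, Fosb and Zfp827 lie lower with separate intervals. The Nkg7, Gzmb, Prf1, Eomes and Ifng intervals overlap.

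The measured genes of secreted products and of the receptors that sustain NK cells were within 2-fold. Ccl5, which attracts T cells and dendritic cells, was the most abundant product, at 4692 and 5631 CPM (0.26, 0.18 to 0.35), in 88.9% and 89.9% of cells. Ccl4 was at 439 and 435 CPM (-0.01, -0.32 to 0.28) and Xcl1 at 218 and 242 CPM (0.15, -0.27 to 0.56). Ifng, the gene of interferon gamma, was at 105 and 140 CPM (0.42, -0.16 to 0.98), but 40.0% of its RP-6306 UMIs lay in 1 cell, and without the highest cell of each library the log2 ratio was -0.22. Il2rb, the shared receptor chain for interleukins 2 and 15, was at 490 and 505 CPM (0.04, -0.24 to 0.32). The transducers Jak1 (-0.01) and Stat4 (0.22, 0.01 to 0.42) and the interferon gamma receptor Ifngr1 (1994 and 2426 CPM, 0.28, 0.15 to 0.41) belonged to a list of 19 measured members.

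Of the maturation genes, the late list had a median of -0.16, with 5 of 8 measured members below 0 (all genes 44.9%). Without the highest cell per gene the median was -0.88, but that setting also lowered the median of all genes, from 0.05 to -0.04. For every measured member the highest cell held a larger share of the UMIs in the RP-6306 library. For Ly6c2 the share was 10.3% in vehicle and 55.6% in RP-6306 NK cells, and for Klrg1 6.67% and 28.6%. How much of the -0.88 came from these cells was not tested. The late list as a sum was at 811 and 642 CPM (-0.34, -0.58 to -0.10). Zeb2 alone gave 227 of the 659 vehicle UMIs and 42 of the 183 RP-6306 UMIs of this sum. The sum was not taken without Zeb2. Of the 8 measured members only 1, Zeb2, had an interval below 0 (all genes 2.51%). The furthest below 0 was Zeb2, at 279 CPM (244 to 318) in vehicle and 147 CPM (106 to 199) in RP-6306 NK cells, a log2 ratio of -0.92 (-1.43 to -0.44), seen in 45.9% and 26.3% of cells. Macrophages held Zeb2 at 1101 and 1121 CPM, and the NK cells' macrophage and monocyte list summed to 267 and 316 CPM, mostly Ccr2, which NK cells express too. Whether macrophage RNA took part in the Zeb2 difference was not tested. S1pr5, the egress receptor of late NK cells, had 17 vehicle UMIs and 1 RP-6306 UMI, too few to be measured, and Itgam was at 137 and 147 CPM (0.11, -0.44 to 0.63).

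The early list had a median of 0.14, with 7 of 11 measured members above 0 (all genes 55.1%). With the mean over cells its median was -0.04, with 5 of 11 above 0 (all genes 55.9%). As a sum it was at 2898 and 3296 CPM (0.19, 0.07 to 0.30). Ctla2a alone gave 427 of the 2356 vehicle UMIs and 224 of the 940 RP-6306 UMIs of this sum. The sum was not taken without Ctla2a. Of the 11 measured members 2, Il7r and Ctla2a, had an interval above 0 (all genes 6.62%). Il7r, the interleukin 7 receptor of early NK cells and ILC1, was at 44.3 CPM (31.0 to 61.3) and 102 CPM (68.1 to 146), a log2 ratio of 1.18 (0.44 to 1.95), from 7.41% and 13.1% of cells. With at least 3 receptor UMIs required of each NK cell the Il7r ratio was 0.28, and with cells thinned to 1500 UMIs it was 2.01. Il7r was higher in the RP-6306 library in CD8 T cells too (712 and 1159 CPM, 0.70). Ctla2a, a cathepsin inhibitor gene, was at 525 and 785 CPM (0.58, 0.34 to 0.82), and Tcf7 at 156 and 126 CPM (-0.31, -0.88 to 0.24).

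Transcription factors stayed close, with a median of -0.02 and 7 of 11 measured members below 0 (all genes 44.9%). Eomes had a log2 ratio of -0.29 (-0.74 to 0.14) and Tbx21, the gene of T-bet, was at 87.3 and 73.6 CPM (-0.24, -1.02 to 0.47). Bach2, a repressor of effector genes, was at 739 and 578 CPM (-0.35, -0.61 to -0.10), and Irf8 at 504 and 501 CPM (-0.01, -0.29 to 0.27). Among the 6 measured genes of ILC1 and tissue residence, whose median was 0.40, Rgs1, which blunts chemokine receptor signals, was at 343 and 547 CPM (0.67, 0.38 to 0.96), and Itga1 was at 48.0 and 56.1 CPM (0.22, -0.71 to 1.10). In the trafficking list (median 0.26), Cxcr4, a chemokine receptor, was at 73.8 and 126 CPM (0.77, 0.14 to 1.39).

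**Figure D4:**
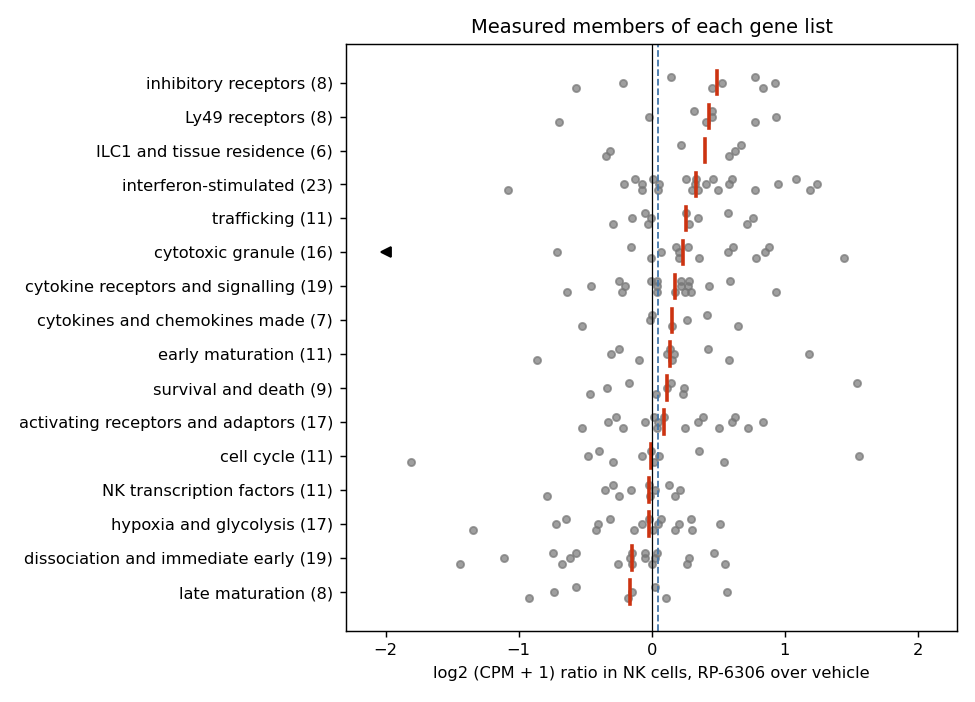
Log2 ratio of CPM + 1 in NK cells, RP-6306 over vehicle, for the measured members (grey points, number in brackets) of 16 gene lists, with each list's median in red and the median of all 6465 genes, 0.05, as a dashed line. Medians run from -0.16 for late maturation to 0.49 for inhibitory receptors, an order that other settings change, and the black triangle marks Gzmd, counted in 1 vehicle cell alone, whose ratio lies further left than drawn.

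Interferon-stimulated genes had a median of 0.33, with 18 of 23 measured members above 0 (all genes 55.1%). Of these 23, 3 were at least 2-fold higher (all genes 2.52%) and 1 at least 2-fold lower (all genes 3.76%). With at least 3 receptor UMIs required of each member the median was 0.11, with 12 of 21 above 0 (all genes 55.5%). Without the highest cell per gene 14 of 23 were above 0 (all genes 46.3%). Gbp2 (17.2 and 42.1 CPM), Rtp4 (14.8 and 35.1 CPM) and Isg15 (25.8 and 56.1 CPM) were past 2-fold on few UMIs, and 43.8% of the RP-6306 Isg15 UMIs lay in 1 cell. Ifi213 was at 70.1 and 137 CPM (0.95, 0.34 to 1.58) and Ifi203 at 166 and 249 CPM (0.58, 0.15 to 1.01). The cell cycle list had a median of 0.00 over 11 measured members. Mki67, a proliferation marker, was at 44.3 and 31.5 CPM (-0.48, -1.73 to 0.59), and the drug's target Pkmyt1 had 3 and 2 UMIs and Wee1, its sister kinase, 10 and 1, too few to compare. Pkmyt1 transcripts do not check the labels, since the drug acts on the protein.

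Immediate early genes split. Fosb was at 87.3 and 31.5 CPM (-1.44, -2.66 to -0.46), Fos at 241 and 144 CPM (-0.74, -1.27 to -0.25) and Jun at 224 and 151 CPM (-0.57, -1.09 to -0.08). Tumour cells had the same order, with Fosb at 503 and 233 CPM and Fos at 1157 and 591 CPM, and free tumour RNA was not tested as a part of this difference. Junb, at 784 and 1087 CPM (0.47, 0.27 to 0.67), and Btg2, at 337 and 494 CPM (0.55, 0.25 to 0.85), were higher, as they were in B cells (433 and 705 CPM, and 362 and 698 CPM). The list as a whole had 12 of 19 measured members below 0 (all genes 44.9%) and a median of -0.15. This list also marks stress from tissue dissociation.

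The 12 highest genes by the naming rule, which asked for at least 50 CPM and 50 UMIs, were St6galnac3 (a sialyltransferase), Ddx39b and Ddx3y (RNA helicases), Klrc1, Ctsw, Camk4 (a calcium-dependent kinase), Cct8 (a chaperonin subunit), Grk6 (a receptor kinase), Serpinb9, Klrb1f, Zfp981 and Fmnl1 (a formin). Their log2 ratios ran from 0.83 to 1.13. St6galnac3 was at 87.3 and 193 CPM (1.13, 0.61 to 1.67) in 12.6% and 20.2% of NK cells. Zfp981 was higher in B cells as well (293 and 508 CPM), while Klrc1 and Serpinb9 in CD8 T cells were at 23.2 and 17 CPM and at 29.0 and 32.7 CPM. T cells with NK receptor UMIs held Klrc1 at 298 and 348 CPM and Serpinb9 at 413 and 390 CPM.

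The 12 lowest genes had fewer UMIs, at most 18 each in the RP-6306 library, and log2 ratios from -1.67 to -1.08. Among them were Zfp827, Cks2, Yaf2, Dstn, Sgk1, Spred2, Cep170, Wdr7, Ctnna1, Ehbp1 and Ccm2. Zfp827, a zinc finger gene, was at 68.9 CPM (52.0 to 89.5) and 21.0 CPM (7.72 to 45.8), from 46 vehicle and 5 RP-6306 cells (-1.67, -3.22 to -0.50). Cks2, a partner of cyclin-dependent kinases, was at 67.7 and 21.0 CPM (-1.64, -3.19 to -0.47), while CD8 T cells held 55.5 and 55.7 CPM. Sgk1, a serum-induced kinase, was at 71.3 and 31.5 CPM (-1.15, -2.38 to -0.15), and Spred2, an inhibitor of ERK signalling, at 108 and 49.1 CPM (-1.13, -2.07 to -0.32).

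Within each library the members were not uniform. Over the cells thinned to 1500 UMIs, the variance of Ccl5 was 6.91 times its mean in vehicle and 7.44 times in RP-6306 NK cells, against a median ratio of 1.05 and 1.02 over 4169 genes. Ccl4 followed with 4.10 and 4.27, Gzma with 4.08 and 5.60, Gzmb with 3.36 and 4.08, Emb with 2.71 and 2.84, and Klra8 with 2.53 and 2.53. Gzmc (27.3 and 3.49, led by single cells), Dscam, Kcnq5 and Malat1 lay among them. The median over 4169 genes was not matched for level. Abundant genes that are not effector genes lay above it too, with Zc3h7a at 3.90 and 2.13, Malat1 at 2.90 and 3.52 and Actb at 2.16 and 2.58. By this measure effector genes were among the most unequally spread over members, in both libraries.

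Cells with an Itga1 UMI were 27 vehicle and 10 RP-6306 members, a split chosen after seeing the data. Their summed levels are set beside those of the other NK cells. The intervals leave out the spread between cells, and the variance of Ccl5 over thinned members was 6.91 and 7.44 times its mean. Klra8 was at 130 CPM in vehicle cells with Itga1 and 624 CPM in those without (log2 ratio -2.26, -3.28 to -1.41), and at 129 and 866 CPM in the RP-6306 library (-2.74, -4.64 to -1.37). Eomes was at 94.2 and 266 CPM in the vehicle library (-1.49, -2.73 to -0.49) and at 32.2 and 224 CPM in the RP-6306 library, where it rested on 1 UMI in the cells with Itga1 (-2.76, -8.13 to -0.26). Ccl5 was lower too, at -0.60 (-0.79 to -0.42) and -0.66 (-0.95 to -0.39). The cells with Itga1 thus held less Eomes, Klra8 and Ccl5 in both libraries.

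Vehicle cells with Itga1 also held more Il7r, Inpp4b, Ltb and Tnfsf10. Il7r was at 200.2 CPM with and 26.1 CPM without Itga1 (2.89, 1.91 to 3.96), Inpp4b, a lipid phosphatase gene, at 377 and 86.5 CPM (2.11, 1.46 to 2.76), and Ltb, which encodes lymphotoxin beta, at 247 and 75.6 CPM (1.70, 0.91 to 2.46). Tnfsf10, the gene of the death ligand TRAIL, had 8 UMIs in the 27 vehicle cells with Itga1 and 5 in the other 243 (3.60, 1.98 to 5.74). Prf1 was lower, at 141 and 317 CPM (-1.16, -2.14 to -0.33). In the RP-6306 library the intervals for Il7r (1.09, -0.49 to 2.43), Inpp4b (0.64, -0.66 to 1.75) and Ltb (0.33, -1.65 to 1.86) included 0, and 83.3% of the Il7r UMIs in the 10 cells lay in 1 cell, without which the log2 ratio was -1.02.

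Splitting the same cells by Eomes gave larger groups, 123 with and 147 without a UMI in the vehicle library and 41 and 58 in the RP-6306 library. The 2 splits share their cells, so the Itga1 values here restate the Eomes values above and are no separate support. Klra8 was higher in the cells with Eomes, at 771 and 404 CPM (0.93, 0.66 to 1.21) and at 1106 and 513 CPM (1.11, 0.70 to 1.52). Itga1 was lower, at -2.15 (-3.76 to -0.94) and -3.51 (-9.07 to -0.97), and so were Il7r, at -1.75 (-3.24 to -0.58) and -1.68 (-3.29 to -0.37, with 83.3% of the UMIs of the cells with Eomes in 1 cell), and Ly6c2, at -2.36 (-3.41 to -1.51) and -2.25 (-4.28 to -0.74). In the RP-6306 library 65.2% of the Ly6c2 UMIs of the cells without Eomes lay in 1 cell, and without the highest cell of each side the value was -1.73 (-5.07 to 0.53). Inpp4b was at -0.73 (-1.39 to -0.10) and -1.94 (-3.18 to -0.89). Prf1 differed by 0.02 and 0.20, with intervals that included 0. After thinning, 7.0% (4.20 to 10.8) of vehicle and 6.59% (2.46 to 13.8) of RP-6306 members held an Itga1 UMI, with overlapping intervals.

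**Figure D5:**
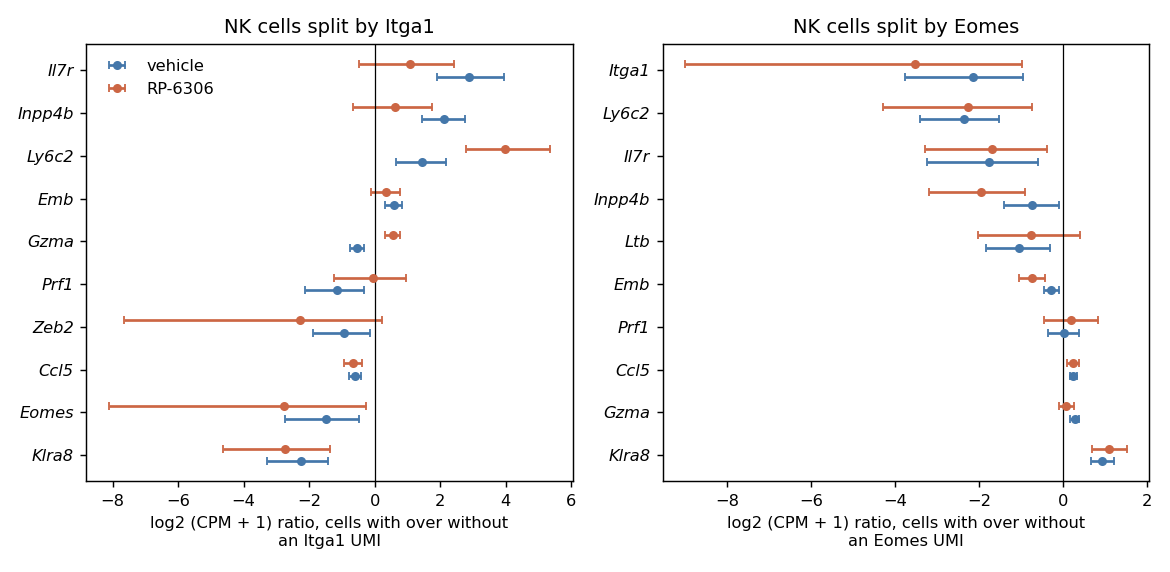
Log2 ratio of CPM + 1 between NK cells with and without a UMI of Itga1 (left) and of Eomes (right), for 10 genes in each panel in the vehicle and RP-6306 libraries, with exact 95% counting intervals (one is drawn only to -9). Klra8, Eomes and Ccl5 lie below 0 in cells with Itga1 in both libraries, and Gzma lies on opposite sides of 0.

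A smaller group carried Kit, the stem cell factor receptor of early NK cells, in 22 vehicle and 4 RP-6306 cells. In the vehicle library these cells held less Gzma (1091 against 3557 CPM, -1.70, -2.02 to -1.40) and Ccl5 (-1.29, -1.52 to -1.07), and more Tcf7 (384 against 130 CPM, 1.55, 0.93 to 2.15) and Emb (0.65, 0.40 to 0.89). The 4 RP-6306 cells had the same signs, with Gzma at -2.25, all from 1 of the 4 cells, and Tcf7 at 1.46. Thinned, Kit was seen in 4.67% of vehicle (2.44 to 8.01) and 1.10% of RP-6306 (0.0278 to 5.97) NK cells, with overlapping intervals.

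T cells with NK receptor UMIs, the closest other cells in the tumours, held less Gzma, Gzmb and Prf1 in the RP-6306 library. In those 49 and 32 cells Gzma was at 1193 and 320 CPM (-1.89, -2.38 to -1.44), Gzmb at 994 and 502 CPM (-0.98, -1.39 to -0.60) and Prf1 at 358 and 125 CPM (-1.50), while the NK ratios were 0.27, 0.20 and 0.00. A Gzma UMI was seen in 34.7% and 18.8% of these T cells, but a Prf1 UMI in 26.5% and 28.1%. Nkg7 was at -0.17 (-0.45 to 0.10) there, and Ccl5 was higher (0.35, 0.17 to 0.52). Klrc1 was at 298 and 348 CPM there (0.22), against 282 and 536 CPM in NK cells. The difference between the 2 kinds of cell was not tested.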

How the data were processed

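The authors deposited raw counts: whole UMIs per gene and barcode, not normalized, with 17313 vehicle and 15909 RP-6306 barcodes. Cell Ranger 2.1.1 and mm10 are listed in the submitters' processing notes with no role, and the choice of barcodes is not given in those notes. The members and gene lists were chosen with earlier results of these data known.

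Counts were summed per library over member cells (scipy 1.17.1 and numpy 2.4.6 under Python 3.11.15) and scaled to CPM with exact Poisson intervals. Log2 ratios took a pseudocount of 1 CPM, which was left out of their exact conditional binomial intervals. Shares carry Clopper-Pearson intervals, and a count of 0 allows 3 counts. Genes needed 20 UMIs over both libraries and were called at 2-fold. Named genes were the 12 highest and 12 lowest that reached 50 CPM and 50 UMIs in the higher library, at most 25% of them in 1 cell, and at least 20% of the highest level in tumour, B or macrophage cells. Up to 4 members per list and a fixed set were named too, as were 8 genes in each direction between the Itgam and Cd27 states. Those 8 were taken only from genes with the same sign in both libraries, by the smaller of the 2 ratios. Ribosomal, mitochondrial, hemoglobin, antigen receptor and predicted genes were left out. Splits by 1 gene were chosen after seeing the data. A few genes and 1 such split are not reported here.

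B cells held at least 2 UMIs of the B genes and none of the Cd3 and NK receptor genes, T cells at least 2 Cd3 UMIs, and CD8 T cells also at least 2 of Cd8a and Cd8b1 and no NK receptor UMI. Doublets were kept: Scrublet (scanpy 1.11.5) called 3 and 0 cells, too few to trust, so removing the top 6% of scores was an alternative. Gene positions come from GENCODE on GRCm38. On simulated NK counts with 200 of 6466 genes at 2-fold, 98.5% had the right direction, and 4.60% of the other genes passed 2-fold by counting error alone.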

Additional observations from a re-analysis of the deposited data

Results flagged for a closer look

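Within NK cells, Gzma lay on opposite sides of 0 in the vehicle and RP-6306 libraries under the same split, and the difference was not tested. Gzma was lower in vehicle cells with an Itga1 UMI (log2 ratio -0.54) and higher in RP-6306 ones (0.55), where 39.3% of the UMIs of the 10 cells lay in 1 cell, and without the highest cell of each side the RP-6306 value was 0.12.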

How the results depend on the processing

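No paired analysis was possible because each group had 1 library, and no replicate could be left out. The log2 ratio of the NK share kept its sign under all 12 alternatives: it was -1.75 per T cell and -1.33 to -1.52 otherwise. The 163 genes at least 2-fold higher became 59 with a pseudocount of 10 CPM, 108 with TMM factors, 1653 with no UMI filter and 3 with at least 100 UMIs. The 243 lower genes became 84 with a pseudocount of 10 CPM, 3416 with no UMI filter, 4 with at least 100 UMIs and 431 without the highest cell per gene. Higher genes were 33.0% of those called with median-of-ratios factors and 22.6% without the highest cell per gene, against 40.1%. Few genes with many UMIs thus passed 2-fold.

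Shares of cells with a UMI moved with depth (vehicle first). Thinned to 2500 UMIs, neither gene was seen in 66.7% and 70.0%, Cd27 in 14.4% and 11.7%, Eomes in 42.5% and 41.7%, and in vehicle cells Cd27 alone in 12.6% and both in 1.72%. Unthinned, neither was seen in 64.1% and 66.7%, Cd27 alone in 10.7% and 10.1%, Cd27 in 12.6% and 15.2%, Eomes in 45.6% and 41.4%, and in vehicle cells both in 1.85%, Itgam alone in 23.3% and Itgam in 25.2%. Thinned to 1000 UMIs, Klrg1 was seen in 3.73% and 1.04%, and Eomes in 18.8% of RP-6306 cells. With at least 3 receptor UMIs, vehicle and RP-6306 cells showed Itgam in 19.5% and 8.96%, both in 0.976% and 0, Klrg1 in 5.85% and 0, and Eomes in 31.2% and 23.9%. The order of list medians changed too: with at least 3 receptor UMIs ILC1 (0.55) and Ly49 (0.47) lay above inhibitory receptors (0.28), and thinned to 1500 UMIs so did granule genes (0.51, against 0.47). Thinned to 1500 UMIs, 1 gene was at least 2-fold higher in Itgam cells of both libraries. Without the highest cell of each side, Il7r by Itga1 in the RP-6306 library reversed to -1.02 from 1.09. In all, 259 alternative values of the main results stayed within the limits set and 35 moved, and the cause was not tested. For list medians the limits were the medians of the members' own interval ends, so a change of sign could fall within them. Without the highest cell per gene, the median for cytokines made went from 0.15 to -0.12 and for survival genes from 0.12 to -0.02. The median of all genes went from 0.05 to -0.04 under that setting. Thinned to 1500 UMIs, the median for cytokine receptors went from 0.18 to -0.02.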

Other observations

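Survival genes of NK cells were mostly close between the libraries. Of 9 measured members 6 were above 0 (all genes 55.1%), with a median log2 ratio of 0.12. Bcl2, which keeps lymphocytes alive under interleukin 15, was at 1279 and 1511 CPM (0.24), Bcl2l11, its killing partner, at 401 and 435 CPM (0.12), and Mcl1 at 236 and 242 CPM (0.03). Bcl2a1b, a short-lived survival gene with near-identical copies, was at 23.4 and 70.1 CPM (1.54) on 19 and 20 UMIs.

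Of the hypoxia and glycolysis list, 17 of 18 genes were measured in NK cells. Of these 8 were above 0 (all genes 55.1%) and 9 below (all genes 44.9%), with a median of -0.02. Klra4, a Ly49 gene of NK cells at 410 and 543 CPM, was counted in tumour cells as well, at 128 and 84.8 CPM, while Klra8 was at 0.0554 and 0.0138 CPM there.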
